A study of Mus musculus with 18 samples.

Results

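Extraocular muscle (EOM) and heart of mdx mice were compared across the genes of an Affymetrix mouse expression array. The comparison takes the 3 arrays of mdx EOM and the 3 arrays of mdx heart, 6 of the 18 arrays of the study, by their titles. All 18 arrays measured total RNA of mice 8 weeks of age, in 6 groups of 3 arrays: EOM, heart and leg muscle of dko mice, and the same 3 tissues of mdx mice. The mdx mouse lacks dystrophin and is the control of the study, and every group shares this loss. The name dko usually stands for mice that lack dystrophin and utrophin both, which the labels do not spell out. There is no muscle of normal mice here, so each difference below lies between 2 tissues that both lack dystrophin. The labels give neither the strain nor whether each array had an animal of its own. The p-values therefore rest on the spread among these arrays, and that spread may be technical.

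The extraocular muscles move the eye. They are skeletal muscles of unusual makeup that keep embryonic and slow myosins in the adult alongside fast ones, and in mdx mice they are largely spared the cycles of necrosis and regeneration seen in limb muscle. The heart of mdx mice develops its disease late. The tissues also differ in how a contraction starts. In skeletal muscle the surface calcium channel pulls directly on the ryanodine receptor Ryr1, whereas in heart calcium that enters through the channel opens the receptor Ryr2.

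Levels are intensities in arbitrary units, given for the arrays numbered 1, 2 and 3 of a group in that order. Log2 differences are mdx EOM minus mdx heart unless another pair is named, fitted on the log2 of the intensity plus 166.7, with the array number as a block and ± for the standard error. An adjusted p under 0.05 by limma with Benjamini-Hochberg adjustment over 8888 tested probe sets counts as passing. The 6 arrays had been scaled to nearly the same trimmed mean (1499.64 to 1499.77). The 2 arrays numbered 3 stood apart, with medians of 549.65 and 573.75 against 612.6 to 671.8 on the other 4 arrays, and with maxima of 58010.5 and 71818.9 against 34788.1 to 47588.9. Same-numbered arrays of the 2 tissues deviated from their group means together, with correlations across probe sets of 0.489, 0.363 and 0.612. Without the arrays numbered 3, 928 of the probe sets passed, and in a fit without the block 627 (7.05%) passed. The mdx leg is read as a further level, but its arrays and the dko arrays were part of the same fit. Their spread therefore entered the standard errors and p-values of EOM minus heart. Leg array 2 was low for several fast-fibre genes, as for Casq1 with 9514, 7.9 and 39647.

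At this threshold 1570 probe sets, or 17.7% of those tested, differed between mdx EOM and mdx heart. Of these, 755 (8.49%) were higher in EOM and 815 (9.17%) were lower. With 1 probe set for each of 6551 genes, 1197 genes (18.3%) passed, 576 (8.79%) of them higher and 621 (9.48%) lower. On 1827 probe sets (20.6%) the levels of the 2 groups did not overlap, with all 3 EOM arrays above all 3 heart arrays on 871 (9.8%) and below them on 956 (10.8%). Of 35 skeletal muscle genes 25 were higher in EOM and 0 lower, with a median log2 difference of 2.30. Of 30 cardiomyocyte genes 22 were lower and 1 higher, with a median of -2.27, beside a median of -0.022 over all tested probe sets. In the fit without the block these counts were 23 of the skeletal genes higher, and 19 of the cardiomyocyte genes lower with 1 higher.

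The 10 genes furthest above heart were Tnnt3, Myh1, Ryr1, Myh4, Myh3, Pvalb, Tbx15, Actn3, Myoz1 and Chrna1. Most of them encode parts of fast skeletal fibres. Tnnt3, fast skeletal troponin T, read 46508, 36046 and 57339 in mdx EOM, against 177, 385 and 40.5 in mdx heart (log2 difference 7.08 ± 0.40, adjusted p = 1.54e-08). The 10 furthest below were Myl7, Ryr2, Ankrd1, Nppb, Tnni3, Tnnt2, Cdh2, Mybpc3, Dsp and Rrad, most of them known from heart muscle cells. Myl7, the atrial regulatory myosin light chain, read 109, 69.0 and 264 in mdx EOM, against 26192, 14317 and 34737 in mdx heart (log2 difference -6.29 ± 0.20, adjusted p = 1e-10). For both genes the 2 tissues lay far apart on every array.

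**Figure D1:**
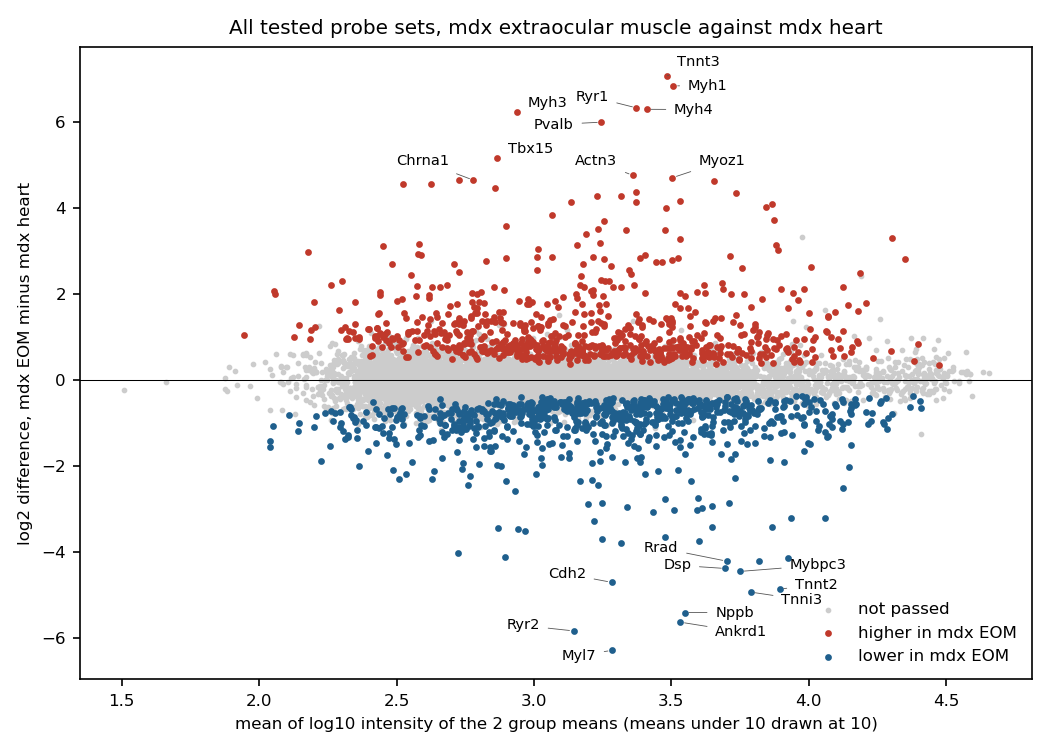
Each point is 1 of 8888 tested probe sets, with the mean log10 intensity of the 2 group means on the horizontal axis and the log2 difference, mdx EOM minus mdx heart, on the vertical axis. Red points (755) passed the threshold higher in EOM, blue points (815) lower, grey points did not pass, and the 10 furthest genes on each side are named.

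The promoters of 4 genes that passed, 2 from each side, are printed to show short motifs that muscle factors are known to bind. They are the 250 bases before the RefSeq start of each gene in GRCm38.p6, written 5′ to 3′ on the strand of the gene, with motif matches in capitals. Chrna1 lies at chr2:73580339-73580588 on the minus strand, Cacna1s at chr1:136052561-136052810 on the plus strand, Nppb at chr4:147985650-147985899 on the plus strand and Myl7 at chr11:5898783-5899032 on the minus strand.
Chrna1: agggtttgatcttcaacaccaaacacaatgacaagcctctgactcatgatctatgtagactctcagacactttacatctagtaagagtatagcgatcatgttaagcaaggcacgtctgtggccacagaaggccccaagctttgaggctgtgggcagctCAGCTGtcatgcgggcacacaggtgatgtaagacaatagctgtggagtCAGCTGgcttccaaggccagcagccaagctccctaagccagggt
Cacna1s: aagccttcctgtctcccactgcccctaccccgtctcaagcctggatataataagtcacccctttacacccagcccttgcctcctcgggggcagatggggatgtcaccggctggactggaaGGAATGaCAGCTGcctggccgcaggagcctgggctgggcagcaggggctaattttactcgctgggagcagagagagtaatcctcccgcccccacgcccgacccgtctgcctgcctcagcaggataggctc
Nppb: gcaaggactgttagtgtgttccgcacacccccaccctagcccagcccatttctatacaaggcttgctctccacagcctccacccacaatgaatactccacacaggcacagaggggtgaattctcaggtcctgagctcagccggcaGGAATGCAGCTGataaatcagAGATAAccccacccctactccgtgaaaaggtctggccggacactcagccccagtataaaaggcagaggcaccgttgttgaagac
Myl7: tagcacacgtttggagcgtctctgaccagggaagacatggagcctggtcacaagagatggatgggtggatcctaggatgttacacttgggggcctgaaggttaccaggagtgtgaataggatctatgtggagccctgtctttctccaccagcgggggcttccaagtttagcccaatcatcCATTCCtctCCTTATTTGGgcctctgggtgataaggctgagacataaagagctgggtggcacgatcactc
Chrna1, which encodes the alpha subunit of the acetylcholine receptor, and Cacna1s, which encodes the skeletal calcium channel, were higher in EOM. Nppb, which encodes the B-type natriuretic peptide, and Myl7 were lower. The motifs searched on both strands were the E-box CAGCTG of myogenic factors, the GATA motif AGATAA, the M-CAT motif CATTCC, the CArG box and the MEF2 motif. The capitals in Chrna1 are 2 E-boxes, which begin 92 and 44 bases before the start. In Cacna1s they are an M-CAT motif at 130 and an E-box at 123 bases. Nppb has an M-CAT motif at 105, an E-box that follows it directly at 99, and a GATA motif at 84 bases. Myl7 has an M-CAT motif at 70 and a CArG box at 61 bases. No matches overlapped, and these 4 promoters were chosen after the search.

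Over the wider lists genes were counted, and a gene counted if any of its promoters held the motif. The E-box CAGCTG was found for 7 of 16 skeletal muscle genes higher in EOM (43.8%) and 4 of 20 cardiomyocyte genes lower in EOM (20.0%). Of 5247 tested genes with a promoter 13.9% had it. GATA motifs were found for 1 of 16 skeletal genes (6.2%), 6 of 20 cardiomyocyte genes (30%) and 7.2% of tested genes. The M-CAT motif was found in 1 of 16 (6.2%), in 7 of 20 (35%) and in 13.5% of tested genes. CArG boxes lay in 0 of 16, in 3 of 20 (15.0%) and in 1.7%, and MEF2 motifs in 3 of 16 (18.8%), in 3 of 20 (15.0%) and in 2.0% of tested genes. Over all 27025 genes with a promoter in the table, the shares were 14.7% for the E-box, 11.4% for GATA, 14.4% for M-CAT, 1.6% for CArG and 3.4% for MEF2. The other 9 of 25 skeletal genes and 2 of 22 cardiomyocyte genes had no promoter matched. A match is a string of letters and says nothing of binding.

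Among the sarcomeric myosin heavy chains, the motors of the thick filament, the fast and developmental chains were higher in EOM, and the alpha cardiac chain was lower. Of 7 tested genes of this list 4 were higher and 2 lower. The second lower one was Myh14, a non-muscle chain (log2 difference -0.62, adjusted p = 0.0278), which did not pass without the block (adjusted p = 0.285) or without EOM array 1, EOM array 3 or heart array 3. Myh1, the fast IIx chain, read 36410.5, 32246 and 57221 in mdx EOM, 20.6, 554 and 166 in mdx heart and 23697, 20582 and 65337 in mdx leg (log2 difference 6.84 ± 0.54, adjusted p = 4.69e-07). Myh4, the fast IIb chain, read 19705, 24929 and 44665 in mdx EOM, against 122, 457 and 88.4 in mdx heart (log2 difference 6.30, adjusted p = 0.000474). Both were bright on all EOM arrays and dim on all heart arrays. A second probe set of Myh4, whose probes are flagged as less specific, went the other way at lower intensity (log2 difference -1.03, adjusted p = 0.02). The embryonic chain Myh3 read 9979.7, 18438 and 21625 in mdx EOM, 62.7, 29.3 and 43.3 in mdx heart and 2049, 1345 and 2548 in mdx leg, so that EOM stood above heart (log2 difference 6.24, adjusted p = 1.69e-09) and also above leg (log2 difference EOM minus leg 2.94, adjusted p = 1.72e-05). The perinatal chain Myh8 read 3691, 4293 and 5217 in mdx EOM, against 20.1, 26.3 and 29.4 in mdx heart (log2 difference 4.56, adjusted p = 4.36e-10). Persistent embryonic and perinatal myosins are a known trait of adult extraocular muscle.

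The alpha cardiac chain Myh6 read 665, 1295 and 1765 in mdx EOM, 30609, 6874 and 68085 in mdx heart and 93.0, 53.6 and 90.1 in mdx leg. Every heart array was above every EOM array (log2 difference -4.21, adjusted p = 0.000169), and every EOM array was above every leg array (log2 difference EOM minus leg 2.44, adjusted p = 0.0147). That second difference did not pass without EOM array 2 (2.09, adjusted p = 0.0751) or without leg array 3 (2.14, adjusted p = 0.0669), nor without the block (adjusted p = 0.0601). The slow and beta cardiac chain Myh7 did not pass between EOM and heart: it read 11231, 18949 and 22901 in mdx EOM, 7783, 7145 and 7815 in mdx heart and 241, 1999 and 363 in mdx leg, with every EOM array above every heart array (log2 difference 1.15, 95% interval 0.20 to 2.09, adjusted p = 0.0917). Both EOM and heart were above leg for Myh7, by 4.46 (adjusted p = 2.1e-05) and by 3.32 (adjusted p = 6.81e-05) on the log2 scale. The probes of this probe set are shared within the gene family, as the array's naming marks, and a second, dim probe set of Myh7 did not pass either (log2 difference -0.47, adjusted p = 0.101). Family-shared or less specific probes also stand behind the values of Myh8, Mylpf, Tnnc2, Actc1, Pvalb, Atp2a1, S100a1, Ckm, Gja1, Dsc2, Pkp2, Kcnd2, Nqo1, Fgfr1 and Ces1d, so their identity is less certain. By the same naming, probes shared between transcripts stand behind the values of Tnnt1, Atp2a2, Cacna1c, Utrn and Alas2.

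The light chains, which bind the neck of the myosin head, split the same way, with 2 of 7 higher in EOM and 3 lower. The fast chain Mylpf read 4345, 6398 and 3488 in mdx EOM, against 18.5, 72.0 and 22.7 in mdx heart (log2 difference 4.55, adjusted p = 4.55e-07). Myl6b read 2718, 3987 and 12135 in mdx EOM, against 1074, 618 and 734 in mdx heart (log2 difference 2.46, adjusted p = 0.00182). On the other side stood Myl3, the slow and ventricular essential chain, with 1636, 1875 and 4029.8 in mdx EOM, against 24169, 8540.3 and 56480.1 in mdx heart (log2 difference -3.20, adjusted p = 2.28e-05), and Myl7. Myl4, the atrial and embryonic chain, read 1614, 3349 and 6992 in mdx EOM, against 12458, 9509.7 and 17512 in mdx heart (log2 difference -1.86, adjusted p = 0.000179), while its second probe set did not pass (log2 difference -0.16, adjusted p = 0.718). Myl2, the slow and ventricular regulatory chain, varied most among the heart arrays, with 14182, 16892 and 31771 in mdx EOM, against 3140.2, 339.6 and 30900.0 in mdx heart. It did not pass on all arrays (log2 difference 2.41, adjusted p = 0.073) and passed, higher in EOM, when heart array 3 was left out (3.5, adjusted p = 0.0115).

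Of the 8 troponin genes, which make the calcium switch of the thin filament, all 3 fast skeletal and 2 slow skeletal ones were higher in EOM, and both cardiac ones were lower. Tnni2, fast troponin I, read 6702, 5169 and 5007 in mdx EOM, against 67.9, 138 and 73.4 in mdx heart (log2 difference 4.48, adjusted p = 1.53e-09). Tnnc2, fast troponin C, read 22041, 13502 and 39431 in mdx EOM, against 809, 1226 and 415 in mdx heart (log2 difference 4.63, adjusted p = 0.00375). Among the slow ones, Tnnt1 read 26846, 22872 and 46826 in mdx EOM, 1199.9, 1744 and 2101 in mdx heart and 5339, 5768 and 6655 in mdx leg (log2 difference 4.09, adjusted p = 1.43e-06). Tnni1 read 22432, 22515 and 44870.0 in mdx EOM, 2309.6, 1274 and 1299.8 in mdx heart and 12605, 9902 and 13432 in mdx leg (log2 difference 4.04, adjusted p = 5.52e-06). Levels of fast and slow forms were thus both above heart on every EOM array. Cardiac troponin T, Tnnt2, read 698, 1476 and 1934 in mdx EOM, against 36046, 29045 and 69215 in mdx heart (log2 difference -4.86, adjusted p = 1.51e-07). Cardiac troponin I, Tnni3, read 578, 826 and 1528 in mdx EOM, against 22962, 21190.0 and 71792 in mdx heart (log2 difference -4.93, adjusted p = 6.95e-05). Tnnc1, the troponin C that slow fibres and heart share, read 10274, 13033 and 21981 in mdx EOM, 23056, 13655 and 46178 in mdx heart and 2344, 1361 and 2348 in mdx leg. The EOM and heart ranges overlapped and the difference did not pass (log2 difference -0.76, 95% interval -1.30 to -0.22, adjusted p = 0.0526), although it passed without heart array 2 (-1.04, adjusted p = 0.0155).

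In the thin filament, Tpm2 and Tpm3, the tropomyosins beta and gamma known mainly from skeletal muscle, were among 3 of 7 genes that were higher in EOM, and 0 were lower. Tpm2 read 23259, 23405 and 31620.1 in mdx EOM, against 1114, 854 and 1417 in mdx heart (log2 difference 4.35, adjusted p = 1.04e-09). Tpm3 read 23268, 20674 and 40402 in mdx EOM, 2829.8, 1881 and 1259 in mdx heart and 4563, 3760.0 and 2055 in mdx leg (log2 difference 3.71, adjusted p = 7.91e-05). The sarcomeric actins were bright in both tissues. Cardiac actin, Actc1, read 31256, 31464 and 38899 in mdx EOM, against 36726, 34318 and 65973 in mdx heart, with overlapping ranges (log2 difference -0.37, 95% interval -0.74 to -0.01, adjusted p = 0.159), and its second probe set did not pass (log2 difference 0.94, adjusted p = 0.169). Skeletal actin, Acta1, read 26606, 23033 and 30153 in mdx EOM, against 14479.6, 13100.4 and 14452 in mdx heart. Every EOM array was above every heart array for Acta1, but the difference did not pass (log2 difference 0.91 ± 0.733, adjusted p = 0.449). This standard error came from the fit over all arrays of the study, not from EOM and heart alone. The mdx leg arrays in that fit lay far apart for Acta1, with 256.1, 247.7 and 6656.3.

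**Figure D2:**
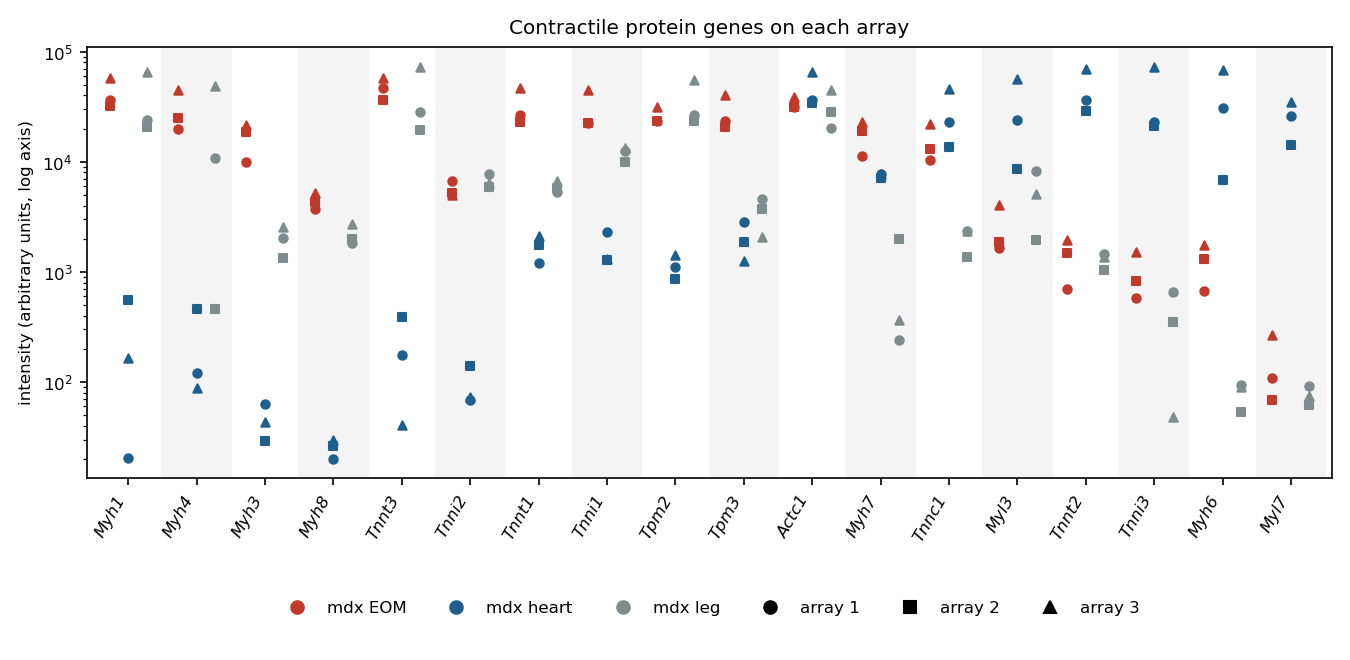
Intensity on a log axis for 18 contractile genes on each array, with mdx EOM in red, mdx heart in blue and mdx leg in grey, and the array number as the marker shape. Myh1 to Tpm3 lie above heart on all EOM arrays, Actc1 and Tnnc1 overlap between EOM and heart, and Myl3 to Myl7 lie below heart on all EOM arrays.

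Around the Z-disc and M-band, where filaments are anchored, 7 of 18 genes were higher in EOM and 6 lower. Actn3, the alpha-actinin of fast fibres, read 10798, 14114 and 17966 in mdx EOM, against 241, 515 and 346 in mdx heart (log2 difference 4.76, adjusted p = 0.00115). Myoz1, a calcineurin-binding Z-disc protein of fast fibres, read 13175, 13694 and 29860.4 in mdx EOM, against 684, 653 and 279.9 in mdx heart (log2 difference 4.71, adjusted p = 1.52e-06). Pdlim3, which binds alpha-actinin, read 5449, 7853 and 4343 in mdx EOM, against 989.5, 867 and 658 in mdx heart (log2 difference 2.56, adjusted p = 1.54e-08). These proteins sit at the Z-disc, where thin filaments end. Mybph, myosin-binding protein H, read 1998, 2686 and 2745 in mdx EOM, against 712, 560.3 and 454 in mdx heart (log2 difference 1.83, adjusted p = 9.31e-05). The LIM protein gene Fhl1 read 25647, 25153 and 40879.9 in mdx EOM, against 6820.4, 9692 and 9221 in mdx heart (log2 difference 1.79, adjusted p = 0.00182). These genes are at home in skeletal fibres, and the tissues did not overlap for any of them.

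The lower ones include genes known to answer mechanical load in heart. Ankrd1, a titin-bound ankyrin repeat protein, read 219, 440.1 and 596 in mdx EOM, 27884, 25376 and 30185 in mdx heart and 3692, 9000.0 and 4750.4 in mdx leg (log2 difference -5.63, adjusted p = 7.87e-09). Its relative Ankrd2, best known from slow skeletal fibres, read 1504, 1799.7 and 1866 in mdx EOM, 689, 908 and 711 in mdx heart and 7601, 8849 and 16026 in mdx leg and was higher in EOM than in heart (log2 difference 1.02, adjusted p = 0.00447). Both ankyrin genes were lower in EOM than in leg, by log2 differences EOM minus leg of -3.31 (adjusted p = 8.4e-06) and -2.47 (adjusted p = 8.4e-06). Csrp3, the muscle LIM protein, read 4469, 5848 and 5987 in mdx EOM, against 26378, 25802 and 46384 in mdx heart (log2 difference -2.52, adjusted p = 1.95e-07). Fhl2, the LIM protein most abundant in heart, read 1986, 1836 and 1847 in mdx EOM, against 30889, 27835 and 53406 in mdx heart (log2 difference -4.13, adjusted p = 2.5e-08). Cardiac myosin-binding protein C, Mybpc3, read 1307, 658 and 1192 in mdx EOM, against 22784, 13804 and 53649 in mdx heart (log2 difference -4.45, adjusted p = 0.000107). Myom2, a protein of the M-band, read 352, 433 and 478 in mdx EOM, 7121, 6833 and 8328 in mdx heart and 10449, 10520.2 and 13882 in mdx leg. EOM thus stood below both other tissues for Myom2 (log2 difference -3.69 against heart, adjusted p = 1.53e-09, and -4.32 against leg, adjusted p = 2.04e-09), a gene known to be scarce in extraocular muscle, which largely lacks the M-band.

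Of 23 genes of calcium handling 6 were higher in EOM and 8 lower. The skeletal ryanodine receptor Ryr1 read 24130.3, 28499.9 and 33672 in mdx EOM, 151, 273 and 156 in mdx heart and 26374, 21238 and 37379 in mdx leg (log2 difference 6.33 ± 0.20, adjusted p = 1e-10), a fold of 80.5 on the scale of the fit. The cardiac receptor Ryr2 read 25.9, 116 and 221 in mdx EOM, 11668, 20962 and 15514 in mdx heart and 85.5, 54.5 and 228 in mdx leg (log2 difference -5.83 ± 0.24, adjusted p = 7.08e-10). For both receptors EOM and leg levels overlapped. Of the calcium channel subunits, skeletal Cacna1s read 8214, 10519 and 16016 in mdx EOM, against 430.4, 408 and 596 in mdx heart (log2 difference 4.14, adjusted p = 2.17e-08), while cardiac Cacna1c read 703, 696 and 738 in mdx EOM, against 5541, 6683 and 7757 in mdx heart (log2 difference -2.94, adjusted p = 3.1e-07). The cardiac beta subunit Cacnb2 read 638, 725 and 612 in mdx EOM, against 3803, 3599 and 4595 in mdx heart (log2 difference -2.33, adjusted p = 1.5e-06). The skeletal gamma subunit Cacng1 was higher in EOM than in heart (log2 difference 1.73, adjusted p = 0.00105) but far below leg, with 1146, 996 and 1146 in mdx EOM, 149.5, 345 and 171 in mdx heart and 6718, 8717 and 15129 in mdx leg (log2 difference EOM minus leg -2.96, adjusted p = 2.74e-05).

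Genes of calcium removal and storage also lay on both sides. Parvalbumin, Pvalb, a calcium buffer of fast fibres, read 18417, 24033 and 18298 in mdx EOM, against 186, 181 and 92.2 in mdx heart (log2 difference 6.0, adjusted p = 1.8e-09), while a second probe set of it did not pass (log2 difference 0.07, adjusted p = 0.981). The fast-fibre calcium pump Atp2a1 read 11110.1, 2095 and 24516 in mdx EOM, against 168, 748 and 117 in mdx heart (log2 difference 4.28, adjusted p = 0.00942). Its call was lost without heart array 3 (3.14, adjusted p = 0.0594) and in the fit without the block (adjusted p = 0.0515). The slow and cardiac pump Atp2a2 read 1946, 3036 and 6225 in mdx EOM, 26524, 22213 and 55913 in mdx heart and 1576, 1169 and 2443 in mdx leg, below heart (log2 difference -3.20, adjusted p = 4.71e-08) and above leg (log2 difference EOM minus leg 0.94, adjusted p = 0.00687, and 0.321 without the block). The sodium-calcium exchanger Slc8a1, a main exit for calcium in heart cells, read 874, 1339 and 844 in mdx EOM, against 14913, 18824 and 13195 in mdx heart (log2 difference -3.75, adjusted p = 2.03e-10). Skeletal calsequestrin, Casq1, read 25991, 22598 and 45456 in mdx EOM, against 3009, 2739 and 2771 in mdx heart, without overlap but not passing (log2 difference 3.32 ± 1.148, adjusted p = 0.0621). For Casq1 too the standard error came from the fit over all arrays, in which mdx leg read 9514, 7.9 and 39647. Cardiac calsequestrin, Casq2, read 1721, 1834 and 1306 in mdx EOM, against 2693, 3988 and 3514 in mdx heart (log2 difference -0.99, adjusted p = 0.00323). S100a1, which tunes calcium cycling, read 9851, 12509 and 13460.5 in mdx EOM, against 19486, 21443 and 29779 in mdx heart (log2 difference -0.96, adjusted p = 0.000165). The kinase Camk2b was higher in EOM, with 5641, 5406 and 5398 in mdx EOM, against 404, 228 and 106 in mdx heart (log2 difference 3.84, adjusted p = 3e-08), and Camk2d was lower, with 31.0, 192 and 388 in mdx EOM, against 499, 506 and 1512 in mdx heart (log2 difference -1.42, adjusted p = 4.46e-05, and adjusted p = 0.166 without the block). Bin1, which shapes the transverse tubules, read 19834, 23832 and 25085 in mdx EOM, against 3104, 2623 and 1791 in mdx heart (log2 difference 3.14, adjusted p = 2.57e-06).

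Natriuretic peptides, hormones that heart cells release under load, were far lower in EOM. Nppb read 561, 551 and 281 in mdx EOM, 22151, 20842 and 37878 in mdx heart and 452, 342 and 225 in mdx leg (log2 difference -5.41, adjusted p = 9.26e-08), a fold of 42.4 lower in EOM on the scale of the fit. Nppa, the atrial peptide, read 1527, 1206 and 1088 in mdx EOM, 15976, 11864 and 18371 in mdx heart and 1277, 1848 and 867 in mdx leg (log2 difference -3.42, adjusted p = 2.56e-07). Corin, the protease that activates it, read 47.6, 168 and 164 in mdx EOM, against 5559.6, 4914 and 4007 in mdx heart (log2 difference -4.11, adjusted p = 1.54e-08). None of the 3 genes overlapped between the tissues. EOM and leg levels of these genes overlapped, and their log2 differences EOM minus leg were 0.31, -0.01 and 0.14 (adjusted p = 0.646, 0.979 and 0.74).

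Among 16 transcription factors of heart formation 9 were lower in EOM and 2 higher, and without the block 5 were lower and 1 higher. Without heart array 3 the 9 became 4. Nkx2-5, an early regulator of the heart, read 172, 108 and 147 in mdx EOM, against 1488, 3051 and 6982 in mdx heart (log2 difference -3.45, adjusted p = 2.3e-05). Hopx, a partner of cardiac factors, read 1638, 3129.7 and 1804 in mdx EOM, against 20983, 20932 and 31849 in mdx heart (log2 difference -3.42, adjusted p = 1.11e-07). Irx3, known from the ventricular conduction system, read 745, 618 and 731 in mdx EOM, against 2079.8, 2144 and 2696 in mdx heart (log2 difference -1.51, adjusted p = 4.12e-05). The GATA factors bind DNA beside Nkx2-5 in heart cells. Gata6 read 383, 109 and 340.5 in mdx EOM, against 1864, 1631 and 4431 in mdx heart (log2 difference -2.59, adjusted p = 1.08e-05), while a dim second probe set of it did not pass (log2 difference -0.31, adjusted p = 0.579). Gata4 read 1190.4, 1269.9 and 262 in mdx EOM, against 3107, 2973 and 3958 in mdx heart (log2 difference -1.89, adjusted p = 0.015). The call for Gata4 was lost without EOM array 3 (-1.49, adjusted p = 0.0835), without heart array 3 (-1.46, adjusted p = 0.0881) and without the block (adjusted p = 0.0544). Hand2 read 39.4, 170.0 and 182 in mdx EOM, against 501, 335 and 1431 in mdx heart (log2 difference -1.49, adjusted p = 0.00863) and was likewise not called without heart array 3 (-1.16, adjusted p = 0.055) or without the block (adjusted p = 0.0515). The 2 higher ones were Mef2c and Mef2d, factors that heart and skeletal muscle both use. Mef2c read 1898, 3124 and 8183 in mdx EOM, 198, 667 and 1390.2 in mdx heart and 3204, 7166 and 12135 in mdx leg (log2 difference 2.30, adjusted p = 4.98e-05). Mef2d had a smaller log2 difference of 0.57 (adjusted p = 0.0265), which did not pass without the block (adjusted p = 0.0847) and passed in 2 of the 6 fits that left out 1 array.

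Several genes whose products join heart cells at the intercalated disc were lower in EOM. They are described without a list of their own. Cdh2, N-cadherin, read 405, 266 and 245 in mdx EOM, against 12466, 13185 and 10510.0 in mdx heart (log2 difference -4.70, adjusted p = 1.66e-10). Desmoplakin, Dsp, read 664, 1716 and 755 in mdx EOM, against 28961, 22734 and 19401 in mdx heart (log2 difference -4.38, adjusted p = 3.77e-08). These proteins hold neighbouring heart cells together. Plakophilin 2, Pkp2, read 353, 267 and 790.2 in mdx EOM, against 4074, 5487 and 8042 in mdx heart (log2 difference -3.28, adjusted p = 3.14e-08). Desmocollin 2, Dsc2, read 303, 551 and 258 in mdx EOM, against 1062, 2077 and 1077 in mdx heart (log2 difference -1.53, adjusted p = 1.06e-05). Perp, a desmosomal membrane protein, read 381, 1063 and 1248 in mdx EOM, against 7139.6, 7201 and 10438 in mdx heart (log2 difference -3.08, adjusted p = 1.52e-06). Connexin 43, Gja1, the main gap junction protein of the ventricle, read 6430.2, 7469 and 5441 in mdx EOM, against 19183, 17627 and 55182 in mdx heart (log2 difference -2.02, adjusted p = 0.00121). Jup, another gene of heart cell junctions, was lower with overlapping ranges (log2 difference -0.8, adjusted p = 0.0155). The connexin gene Gja5 did not pass (log2 difference 0.15, adjusted p = 0.621). Cdh2, Dsp, Pkp2, Dsc2, Perp and Gja1 were separated on every array. For Dsp, Dsc2 and Perp, though, EOM stood above leg (log2 differences EOM minus leg 1.24, 1.37 and 1.86, adjusted p = 0.00789, 8.25e-05 and 0.000472).

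Of 26 genes of ion channels and pumps 8 were lower in EOM and 2 higher, against 5 and 1 without the block. Potassium channel genes that shape repolarization in heart were among the lower ones, Kcne1 with 138, 63.2 and 75.8 in mdx EOM, against 1016, 878 and 1488 in mdx heart (log2 difference -2.30, adjusted p = 0.000214), and Kcnd2 with 11.7, 71.5 and 109 in mdx EOM, against 625, 1436 and 436 in mdx heart (log2 difference -2.01, adjusted p = 0.000874). Outward potassium currents end the cardiac action potential. Kcnk3 read 275, 80.1 and 79.9 in mdx EOM, against 895, 683 and 2310.2 in mdx heart (log2 difference -2.13, adjusted p = 0.00223). Kcnh2 read 1338, 923 and 558 in mdx EOM, against 2859, 3155 and 3632 in mdx heart (log2 difference -1.67, adjusted p = 0.000293). Kcnj11, the pore of the ATP-sensitive channel, read 466, 562 and 3497 in mdx EOM, against 2316, 1768 and 6038 in mdx heart (log2 difference -1.38, adjusted p = 0.00179). Its ranges overlapped and it did not pass without the block (adjusted p = 0.457). Clcn1, the chloride channel that steadies the skeletal muscle membrane, was higher in EOM, with 925, 6491 and 4270.1 in mdx EOM, against 346, 222 and 245 in mdx heart (log2 difference 2.87, adjusted p = 0.000535). In the list of adrenergic and muscarinic signalling 3 of 17 genes were lower and 1 higher, and without the block 2 were lower and 0 higher. Adcy6, an adenylate cyclase prominent in heart, read 1628, 2098 and 1975 in mdx EOM, against 6810.3, 7282 and 5861 in mdx heart (log2 difference -1.72, adjusted p = 1.5e-06). Rrad, which damps calcium channels, read 799, 1119.8 and 1383 in mdx EOM, 20827, 21958 and 26246 in mdx heart and 1720.1, 5502 and 3485 in mdx leg (log2 difference -4.21, adjusted p = 3.35e-08).

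**Figure D3:**
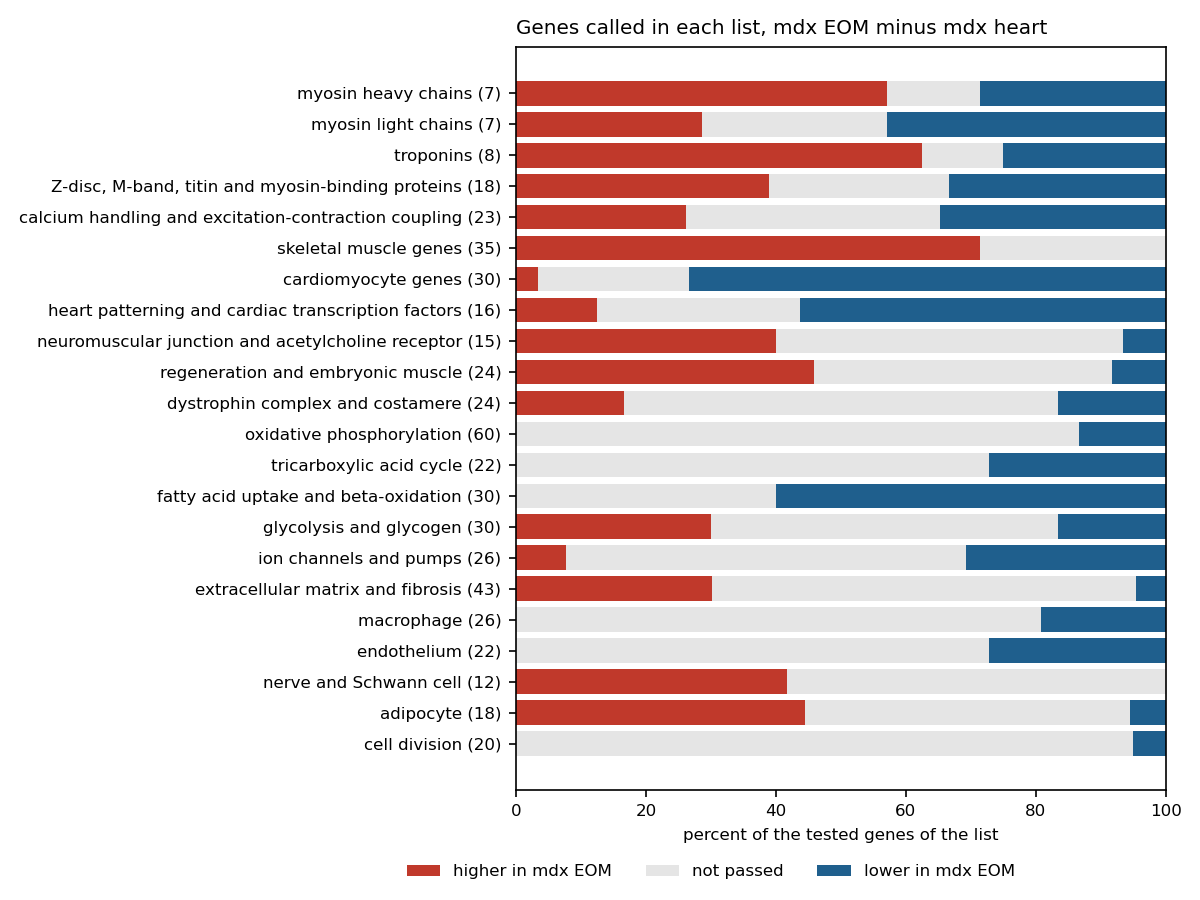
Each bar is a gene list, with the number of tested genes in brackets, and shows the percent of its genes that were higher in mdx EOM than in mdx heart (red), did not pass (light grey) or were lower (blue). Over all 6551 genes 8.79% were higher and 9.48% lower. The skeletal muscle genes hold the longest red bar and the cardiomyocyte genes the longest blue bar of the lists drawn.

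The myogenic factors Myf6, Myog, Myf5 and Myod1 were higher in EOM. Myf6, the myogenic factor kept in mature fibres, read 4475, 6602 and 10745 in mdx EOM, 394, 295 and 78.2 in mdx heart and 3756, 6445 and 7924 in mdx leg (log2 difference 4.13, adjusted p = 1.41e-06). Myogenin, Myog, which drives differentiation, read 3343, 2368 and 2958 in mdx EOM, against 510.4, 353 and 225 in mdx heart (log2 difference 2.55, adjusted p = 1.1e-05). Myf5, an early factor kept in satellite cells, read 880.5, 882 and 831 in mdx EOM, 28.5, 12.5 and 98.5 in mdx heart and 550.5, 388 and 98.3 in mdx leg (log2 difference 2.29, adjusted p = 6.73e-05). Myogenic factors of this family switch on the genes of skeletal muscle. Myod1 read 2898, 2324 and 4622 in mdx EOM, against 1313, 1181 and 646 in mdx heart (log2 difference 1.5, adjusted p = 0.0184) and lost its call without EOM array 3 (1.27, adjusted p = 0.089) or heart array 3 (1.09, adjusted p = 0.107). Cdh15, the M-cadherin of satellite cells, read 749, 909 and 1021 in mdx EOM, against 81.9, 207 and 80.8 in mdx heart (log2 difference 1.89, adjusted p = 1.57e-05). Myostatin, Mstn, which limits muscle growth, read 2466, 2988 and 1543 in mdx EOM, 198, 180.3 and 194 in mdx heart and 1688, 1371 and 836 in mdx leg (log2 difference 2.76, adjusted p = 9.26e-08). Follistatin, Fst, which binds and blocks myostatin, read 897, 980.5 and 2043 in mdx EOM, 73.5, 34.8 and 182 in mdx heart and 62.4, 304 and 701 in mdx leg (log2 difference 2.44, adjusted p = 7.24e-06). Both were also higher in EOM than in leg, by log2 differences EOM minus leg of 0.77 (adjusted p = 0.0142) and 1.62 (adjusted p = 0.000656). For Mstn this was not so without EOM array 2 (0.57, adjusted p = 0.0823), leg array 3 (0.62, adjusted p = 0.0713) or the block (adjusted p = 0.148).

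At the neuromuscular junction, where the motor nerve meets the fibre, 6 of 15 genes were higher in EOM and 1 lower, against 6 and 0 without the block. The receptor subunit Chrna1 read 4559, 5664 and 6833 in mdx EOM, 73.0, 71.9 and 46.4 in mdx heart and 2326, 3360.4 and 3349 in mdx leg (log2 difference 4.65, adjusted p = 1.89e-10). Chrnb1 read 4610.2, 6472 and 4774 in mdx EOM, against 479.6, 703 and 639 in mdx heart (log2 difference 2.81, adjusted p = 5.22e-07). The adult epsilon subunit, Chrne, read 1684, 1609.5 and 1884 in mdx EOM, against 159, 137 and 195 in mdx heart (log2 difference 2.52, adjusted p = 5.58e-08), while 1 of its 2 further probe sets did not pass (log2 difference 0.95, adjusted p = 0.22). Acetylcholinesterase, Ache, which clears the transmitter, read 1364, 2985 and 8364 in mdx EOM, against 286, 191 and 287 in mdx heart (log2 difference 3.04, adjusted p = 0.00016). These 4 genes were separated on every array. Neither the delta subunit Chrnd, with 769, 509 and 696 in mdx EOM, against 655, 236 and 452 in mdx heart (log2 difference 0.47, adjusted p = 0.171), nor the fetal gamma subunit Chrng, with 564, 176 and 1205 in mdx EOM, against 336, 237 and 635 in mdx heart (log2 difference 0.36, adjusted p = 0.471), passed. Erbb3, a neuregulin receptor, read 2271, 3739 and 2729 in mdx EOM, against 1009.7, 1198 and 935 in mdx heart (log2 difference 1.32, adjusted p = 0.000383). Ncam1 read 1669, 1484 and 1335 in mdx EOM, against 594, 566 and 527 in mdx heart (log2 difference 1.19, adjusted p = 0.000122), with a second probe set that did not pass (log2 difference 0.18, adjusted p = 0.792).

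Tbx15, a T-box factor of skeletal muscle and mesenchyme, read 7804, 10015 and 6757 in mdx EOM, 33.0, 50 and 112 in mdx heart and 3329, 4873 and 3486 in mdx leg (log2 difference 5.17, adjusted p = 9.61e-09). Of 22 limb and trunk patterning genes 2 passed, Tbx15 and Hoxd8, both higher, a share near the 8.79% of all genes that were higher. Without the block 1 of the 22 was higher. In the list of head and eye-muscle genes 5 of 15 were higher and 1 lower. The counts were 4 and 1 without the block, and 2 and 1 without the arrays numbered 3. Pitx1 read 1814, 2472 and 1309 in mdx EOM, against 281, 684 and 282 in mdx heart (log2 difference 1.83, adjusted p = 2.27e-05). Six2 read 1420.1, 1426 and 1521 in mdx EOM, against 473, 413 and 266 in mdx heart (log2 difference 1.58, adjusted p = 0.00609). Six4 and Eya2, partners in a network that drives myogenesis, read 1348, 1879 and 2002 and 1729.8, 1914 and 1228 in mdx EOM, against 510.0, 662 and 742 and 548, 734 and 527 in mdx heart (log2 difference 1.24, adjusted p = 0.00334, and log2 difference 1.21, adjusted p = 0.00593). One of the 2 further probe sets of Six4 did not pass (log2 difference 0.63, adjusted p = 0.0593). In the limma fit without the block, Eya2 was also above leg (log2 difference EOM minus leg 1.52, adjusted p = 0.0158). There Pitx1, Six2 and Six4 did not pass against leg (0.76, 0.97 and 0.13, adjusted p = 0.276, 0.178 and 0.952). Tcf21, a factor of head muscle precursors and of the outer layer of the heart, was the lower one, with 85.2, 67.4 and 174 in mdx EOM, against 1175, 839 and 1232 in mdx heart (log2 difference -2.18, adjusted p = 1.52e-05). Myh13, a myosin known from extraocular muscle, was not analysed here.

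Among the genes of energy metabolism, those of fatty acids were most often lower. Of 30 genes of fatty acid uptake and beta-oxidation 18 were lower in EOM and 0 higher, with a median log2 difference of -0.675. In the fit without the block 8 of them were lower. Etfdh, which passes electrons from fatty acid oxidation to the respiratory chain, read 3941, 5195 and 3012 in mdx EOM, against 19243, 20917 and 8692 in mdx heart (log2 difference -1.90, adjusted p = 4.55e-07). Decr1, needed for unsaturated fatty acids, read 1857, 2401 and 2858 in mdx EOM, against 5765, 6067 and 6439.8 in mdx heart (log2 difference -1.32, adjusted p = 3.76e-06). Cpt2, on the carnitine route into the mitochondrion, read 8226, 7676 and 10613 in mdx EOM, against 22392, 15487 and 21760.4 in mdx heart (log2 difference -1.15, adjusted p = 5.94e-05). Heart muscle draws much of its energy from fatty acids. The carnitine carrier Slc25a20 read 7094, 8131 and 7660.3 in mdx EOM, against 15004, 13529 and 16087 in mdx heart (log2 difference -0.95, adjusted p = 4.57e-05). All heart arrays were above all EOM arrays for these 4 genes. Lipoprotein lipase, Lpl, read 10884, 10873 and 18221 in mdx EOM, against 20097, 29292 and 28599.8 in mdx heart (log2 difference -0.98, adjusted p = 0.00585). The uptake genes Fabp3 and Cd36 passed with the block, with 9984, 10376 and 19149.8 in mdx EOM, against 25416, 24688 and 34524 in mdx heart for Fabp3 (log2 difference -1.14, adjusted p = 7.91e-05) and 2039, 2657 and 1511 in mdx EOM, against 2759.7, 5046 and 3763 in mdx heart for Cd36 (log2 difference -0.84, adjusted p = 0.0047). Without the block neither did (adjusted p = 0.124 and 0.143).

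The tricarboxylic acid cycle had 6 of 22 genes lower and 0 higher, against 2 lower without the block, and 3 without EOM array 2 or 3 or heart array 1 or 3. Its most changed member was Idh2, the mitochondrial isocitrate dehydrogenase, with 6211, 6324 and 12366 in mdx EOM, 18624, 16302 and 37954 in mdx heart and 3449.5, 2591 and 5039.9 in mdx leg (log2 difference -1.50, adjusted p = 1.69e-06). Oxidative phosphorylation differed less. Of 60 subunit genes 8 were lower, 0 higher and 52 did not pass, with a median of -0.065, and without the block 1 was lower. Over all genes 9.48% were lower. The count of 8 became 7 without EOM array 1, 4 without heart array 1 and 3 without any other single array. Cox7a1, the subunit of cytochrome c oxidase typical of heart and skeletal muscle, read 14987, 16709.6 and 14280.4 in mdx EOM, against 25324, 30224 and 24018 in mdx heart (log2 difference -0.78, adjusted p = 0.00137).

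Glycolysis and glycogen genes went both ways, with 9 of 30 higher and 5 lower, against 6 and 3 without the block. Phkg1, the muscle catalytic subunit of phosphorylase kinase, read 3749, 5164 and 4998 in mdx EOM, against 617, 908 and 1264 in mdx heart (log2 difference 2.16, adjusted p = 4.76e-08). Glycogen synthase, Gys1, read 19396, 23047 and 35586 in mdx EOM, against 7151, 6305 and 8917 in mdx heart (log2 difference 1.75, adjusted p = 2.27e-06). Ugp2, which makes the glucose donor for glycogen, read 11024, 10794 and 7803 in mdx EOM, against 4483, 5553 and 2317 in mdx heart (log2 difference 1.30, adjusted p = 2.97e-05). The glycogen phosphorylases come in isoforms. Brain-type Pygb read 436, 424 and 590.5 in mdx EOM, 7145, 8567 and 10962 in mdx heart and 451, 127 and 441 in mdx leg (log2 difference -3.79, adjusted p = 3.77e-08). Muscle-type Pygm read 28012, 30202 and 44347 in mdx EOM, against 16068, 21296 and 36322 in mdx heart with overlapping ranges (log2 difference 0.53, adjusted p = 0.117). Lactate dehydrogenase B, Ldhb, the form of oxidative tissues, read 5985, 4630.4 and 9347 in mdx EOM, 10754, 12028 and 18583 in mdx heart and 1178, 746 and 2034 in mdx leg (log2 difference -1.05, adjusted p = 0.00944). Its call was lost without heart array 2 (-0.88, adjusted p = 0.0539) and without the block (adjusted p = 0.265), while EOM stood above leg (log2 difference EOM minus leg 2.23, adjusted p = 5.92e-05). Of 16 genes of creatine kinases, myoglobin and purine turnover 4 were higher and 2 lower, against 4 and 1 without the block. Muscle creatine kinase, Ckm, read 24130.2, 22719 and 18826 in mdx EOM, against 7154, 7375 and 6855 in mdx heart (log2 difference 1.59, adjusted p = 0.00513), while a dim second probe set of it did not pass (log2 difference -0.85, adjusted p = 0.0542). Adssl1, the muscle enzyme of the purine nucleotide cycle, read 14084, 18278 and 18456 in mdx EOM, against 3325, 3730.4 and 4126 in mdx heart (log2 difference 2.13, adjusted p = 9.61e-09). Gatm, which makes the precursor of creatine, read 2175, 3148 and 3875 in mdx EOM, against 757, 594 and 665 in mdx heart (log2 difference 1.92, adjusted p = 0.000157).

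**Figure D4:**
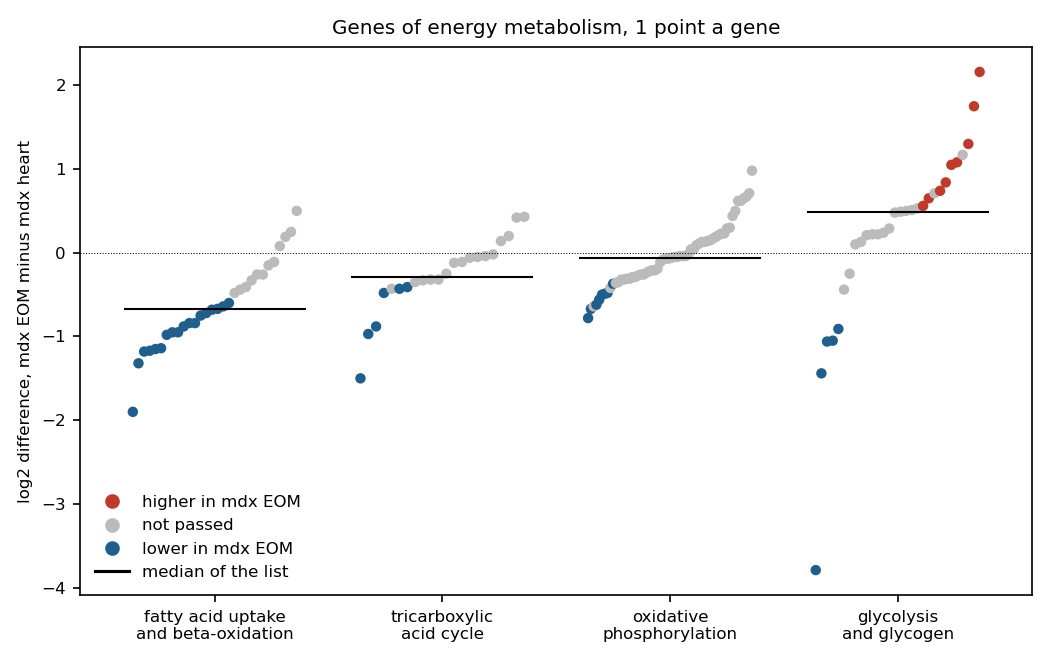
Each point is a gene, ordered by its log2 difference, mdx EOM minus mdx heart, within 4 lists of energy metabolism. Red genes passed higher in EOM, blue genes lower and grey genes did not pass, and the black lines are the list medians, -0.675 for fatty acids, -0.286 for the tricarboxylic acid cycle, -0.065 for oxidative phosphorylation and 0.483 for glycolysis.

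The dystrophin complex, which ties the sarcomere through the membrane to the matrix, had members on both sides. Of 24 genes of the complex and the costamere 4 were higher in EOM, 4 lower and 16 did not pass, with a median of -0.029. In the fit without the block 2 were higher and 0 lower, and without any single array of either tissue 2 to 3 were higher and 2 lower. Utrn, which encodes utrophin, the homologue that can stand in for dystrophin, read 856, 379 and 1005 in mdx EOM, 588, 681 and 877 in mdx heart and 438, 624 and 738 in mdx leg. The ranges overlapped (log2 difference -0.01, 95% interval -0.63 to 0.61, adjusted p = 0.988), and a second probe set did not pass either (log2 difference 0.13, adjusted p = 0.637). Dmd, the dystrophin gene, whose mdx mutation ends the protein early, read 682, 333 and 394 in mdx EOM, against 279, 222 and 212 in mdx heart and did not pass (log2 difference 0.62, adjusted p = 0.0763). Vinculin, Vcl, of the costamere, read 3818, 6529 and 5341 in mdx EOM, against 8259, 12796 and 10382 in mdx heart (log2 difference -0.99, adjusted p = 5.64e-05, and adjusted p = 0.0732 without the block). Capn3, a muscle protease bound to titin, read 5399, 6098 and 3544 in mdx EOM, against 2415, 2185 and 1026 in mdx heart (log2 difference 1.39, adjusted p = 0.000274).

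Genes of regeneration and embryonic muscle, which limb muscle of mdx mice is known to express while it repairs, were higher in EOM in 11 of 24 cases and lower in 2. The higher ones hold genes that adult extraocular muscle keeps without injury, among them Myh3 and Myh8. Peg3, an imprinted gene of muscle stem cells, read 7635, 8507 and 10591 in mdx EOM, 1088, 1204 and 1129 in mdx heart and 5088, 8832 and 10074 in mdx leg (log2 difference 2.78, adjusted p = 3.77e-08). The lower ones were Tnnt2 and Myl4, which the adult heart and the embryonic skeletal fibre both use. Of 20 genes of cell division 0 were higher and 1 was lower, and without the block none passed.

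Matrix genes were higher in 13 of 43 cases and lower in 2, and without the block 6 were higher and 0 lower. Of the fibrillar collagen genes, Col3a1, Col1a2, Col1a1 and Col5a2 were higher, while Col5a1 (log2 difference 0.67, adjusted p = 0.0817) and Col11a1 (0.38, adjusted p = 0.108) did not pass. Col3a1 read 15209.9, 13827 and 24142 in mdx EOM, 4852, 6076 and 6195 in mdx heart and 12715, 17667 and 41189.7 in mdx leg (log2 difference 1.57, adjusted p = 9.09e-05). Col1a2 read 6754, 8148 and 13458 in mdx EOM, against 2896, 2499.7 and 3982 in mdx heart (log2 difference 1.51, adjusted p = 3.04e-05), with a second probe set that did not pass (log2 difference -0.13, adjusted p = 0.603). Col1a1 read 11497, 13967 and 34592 in mdx EOM, 5109, 4245 and 11165 in mdx heart and 17281, 16292 and 53828 in mdx leg (log2 difference 1.48, adjusted p = 2.52e-05, and adjusted p = 0.163 without the block). For Col3a1, Col1a2 and Col1a1 the EOM levels did not differ from leg past the threshold (log2 differences EOM minus leg -0.29, -0.52 and -0.48, adjusted p = 0.418, 0.074 and 0.0853). Fmod, a small collagen-binding proteoglycan, read 996, 2491 and 8480.2 in mdx EOM, against 127, 73.1 and 822 in mdx heart (log2 difference 2.86, adjusted p = 8.84e-05, and adjusted p = 0.0847 without the block).

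Whole tissues hold other cells besides muscle, and in bulk RNA fewer cells of a type and less RNA per cell cannot be told apart. Of 12 genes of nerve and Schwann cells 5 were higher in EOM and 0 lower, and their summed level was 25995 to 30232 in EOM against 9906 to 13139 in heart. Myelin basic protein, Mbp, read 4418, 5647 and 7816 in mdx EOM, against 416, 365 and 432 in mdx heart (log2 difference 3.39, adjusted p = 6.48e-08), with a second probe set that did not pass (log2 difference 0.31, adjusted p = 0.272). Pmp22, another myelin protein, read 9840.0, 10387 and 13646 in mdx EOM, against 3915, 2530.0 and 3621 in mdx heart (log2 difference 1.71, adjusted p = 1.56e-05). Egr2, the factor of myelinating Schwann cells, read 1637, 1789 and 1307 in mdx EOM, against 569, 481 and 580.0 in mdx heart (log2 difference 1.29, adjusted p = 2.27e-05). Of 18 adipocyte genes 8 were higher and 1 lower, against 2 and 1 without the block, with summed levels of 80655 to 90083 in EOM and 52521 to 75695 in heart. The 8 became 1 without EOM array 2 or heart array 3 and 3 without EOM array 3. Adiponectin, Adipoq, a hormone of fat cells, read 10418, 7581 and 6354 in mdx EOM, against 3160.3, 2667 and 667 in mdx heart (log2 difference 2.03, adjusted p = 0.00108). The lower gene was Lpl (log2 difference -0.98, adjusted p = 0.00585). Of the 18 log2 differences 12 were positive and 6 negative. The negative ones besides Lpl were those of Lipe, Lep, G0s2, Fabp4 and Pparg, which did not pass.

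Of 15 genes of lacrimal and Harderian gland 5 were higher and 0 lower, while 8 log2 differences were positive and 7 negative, with a median of 0.238. Their summed level was 13747 to 22033 in mdx EOM, 8597 to 18246 in mdx heart and 12624 to 27289 in mdx leg. In dko EOM minus dko heart the median of this list was -0.053. Amylase, Amy1, read 749, 976 and 971 in mdx EOM, against 157, 217 and 285 in mdx heart (log2 difference 1.47, adjusted p = 0.000378). Of 22 genes of skin and mucosal epithelium 6 were higher and 4 lower, against 2 and 3 without the block, and 2 to 5 were higher without single arrays, fewest without heart array 2. The lower ones were Dsp, Perp, Dsc2 and Jup, all genes of heart cell junctions as well. Keratin 6a, Krt6a, read 2750.4, 4887 and 2892 in mdx EOM, against 1409, 990.1 and 459 in mdx heart (log2 difference 1.77, adjusted p = 0.00267). Of 15 genes of retina and eye pigment 0 were higher and 1 was lower, which became 0 without the block. The macrophage and endothelial lists had calls on the lower side only. The macrophage list had a median log2 difference of -0.162, and of 0.375 in dko EOM minus dko heart. For the endothelial list these medians were -0.353 and -0.546. The macrophage list had 0 of 26 higher and 5 lower, against 1 lower without the block and 1 to 3 without any single array, with a summed level of 32570 to 41037 in EOM and 46535 to 48950 in heart. The complement gene C1qa, which macrophages make, read 1852, 2895 and 3440.1 in mdx EOM, against 5114, 6359 and 6591 in mdx heart (log2 difference -1.13, adjusted p = 0.00231).

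Of 22 endothelial genes 0 were higher and 6 lower, against 1 without the block and 3 without heart array 1, with a summed level of 49785 to 74180 in EOM and 68670 to 91375 in heart. The tight junction gene Cldn5 read 929.8, 728 and 1940.0 in mdx EOM, against 3048, 1819 and 4574 in mdx heart (log2 difference -1.29, adjusted p = 0.00409). Endoglin, Eng, read 6119.6, 6161 and 12524 in mdx EOM, against 11916, 13732 and 25254 in mdx heart (log2 difference -1.03, adjusted p = 0.00323, and adjusted p = 0.0851 without the block). Of 4 red cell genes 1 was higher and 2 were lower, against 0 and 1 without the block. Slc4a1 was lower (log2 difference -0.8, adjusted p = 0.0212). The globin gene Hbb-b2 did not pass (log2 difference -1.25, adjusted p = 0.0782), with every heart array above every EOM array. Alas2, the erythroid enzyme of haem synthesis, read 1719.8, 1083 and 1836 in mdx EOM, against 10979, 11131 and 16211 in mdx heart (log2 difference -2.92, adjusted p = 4.76e-05). The globin gene Hba-a1 read 37144, 31608 and 47601 in mdx EOM, against 944, 1619.9 and 28878 in mdx heart (log2 difference 3.31, adjusted p = 0.00854). Heart array 3 was far above the other heart arrays for Hba-a1, whose call was lost without heart array 1 (2.60, adjusted p = 0.0539) and without the block (adjusted p = 0.0605). Of 12 smooth muscle genes 3 were higher and 1 lower, against 1 and 0 without the block, and 1 was higher without EOM array 2, EOM array 3 or heart array 2. Of 7 B-cell genes 2 were lower, and of 4 T-cell genes 1 was higher, against 1 and 0 without the block. Whether these other cells had a part in the differences of muscle genes was not tested.

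To ask which cardiac-type genes EOM and heart share, a set was chosen by a difference between other arrays: the probe sets that passed in dko heart minus dko leg (12.0% of those tested were higher) with a log2 difference above 1. It held 397 probe sets, and 367 carried a single gene's name, from 339 genes. The set was then read in mdx EOM and mdx leg, where 6.54% of all probe sets were higher in EOM and 5.91% lower. The levels of these arrays did not enter the log2 difference that chose the set. Their spread did enter the fit behind its p-values, so the choice and the calls below are not independent. Of the 397, 116 were higher in mdx EOM than in mdx leg (29.2%), 12 were lower (3.0%) and 269 did not pass. Their median log2 difference EOM minus leg was 0.391, beside -0.031 over all tested probe sets. Same-numbered arrays of EOM and leg gave medians of 0.316, 0.385 and 0.439 (SD 0.062, n = 3). In the fit without the block 316 probe sets made up the set, of which 56 were higher and 4 lower, with a median of 0.459. Without the arrays numbered 3 it held 375, of which 63 were higher and 9 lower, with a median of 0.324.

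Against heart itself the same set was mostly lower in EOM. Of the 397 probe sets 262 were lower in mdx EOM than in mdx heart (66.0%), 1 was higher and 134 did not pass, with a median log2 difference of -0.946. Between mdx heart and mdx leg 353 were higher (88.9%, beside 11.7% of all probe sets), 0 were lower and 44 did not pass, with a median of 1.28. These comparisons share arrays and are given side by side. The mirror set, 460 probe sets lower in dko heart than in dko leg by the same rule, had 33 higher and 131 lower in mdx EOM than in mdx leg, with a median of -0.396.

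The 10 genes of the cardiac-type set with the highest EOM levels relative to leg were Tnnc1, Slc4a3, Myzap, Fbln1, Myh6, Ces1d, Pcp4l1, Ldhb, Abca4 and Selenbp1. Slc4a3, an anion exchanger that sheds bicarbonate in heart and other excitable tissue, read 11477, 13154 and 14440.0 in mdx EOM, 15162, 13403 and 15428 in mdx heart and 2193, 1819.8 and 1587 in mdx leg. EOM and heart overlapped (log2 difference -0.17, 95% interval -0.51 to 0.16, adjusted p = 0.508), and both were above leg, EOM by 2.70 (adjusted p = 3.5e-07) on the log2 scale. Myzap, a protein of the intercalated disc, read 1026, 1624 and 1694 in mdx EOM, 7465, 12906 and 12069 in mdx heart and 38.9, 35.7 and 217 in mdx leg, between the other tissues in EOM (log2 difference -2.75, adjusted p = 3.13e-07, and EOM minus leg 2.65, adjusted p = 3.4e-06). Fbln1, a matrix glycoprotein, read 1769, 1756 and 2618 in mdx EOM, 1844, 2201 and 3297 in mdx heart and 191, 183 and 197 in mdx leg (EOM minus leg 2.61, adjusted p = 7.08e-07), and did not pass against heart (log2 difference -0.22, adjusted p = 0.415). A brighter probe set of Fbln1, the one counted in the matrix list, was lower in EOM than in heart (log2 difference -0.85, adjusted p = 0.0182), though not without the block (adjusted p = 0.225) or without EOM array 1, EOM array 3 or heart array 3. Ces1d, a carboxylesterase, read 1379, 1612 and 1541 in mdx EOM, 2774, 4479.9 and 4522 in mdx heart and 514, 33.0 and 61.3 in mdx leg (EOM minus leg 2.42, adjusted p = 0.000305). It lay below heart (log2 difference -1.26, adjusted p = 0.0169), a call lost without EOM array 1, heart array 2 or heart array 3 (adjusted p = 0.0761 to 0.0825).

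Pcp4l1, a small protein related to a calmodulin regulator, read 3114, 2675 and 3202 in mdx EOM, 7835, 7165 and 4781 in mdx heart and 700.4, 491 and 341 in mdx leg (EOM minus leg 2.25, adjusted p = 4.93e-05). A brighter probe set shared between transcripts of Pcp4l1 did not pass in either comparison (log2 difference 0.02 against heart and 0.57 against leg). Abca4, a lipid flippase best known from photoreceptors, read 1388, 1137 and 1109.6 in mdx EOM, 189, 726 and 172 in mdx heart and 147, 226 and 71.6 in mdx leg. It was the 1 member higher in EOM than in heart (log2 difference 1.53, adjusted p = 0.00138). The mdx heart and mdx leg ranges of Abca4 overlapped, so its cardiac-type label rests on dko heart and dko leg. In dko mice its difference between EOM and heart did not pass (log2 difference 0.12, adjusted p = 0.82). Selenbp1, a selenium-binding protein, read 1536, 2440.5 and 2401 in mdx EOM, 3352, 3289 and 5176 in mdx heart and 607, 156 and 436 in mdx leg (EOM minus leg 2.08, adjusted p = 0.000184). It was near the threshold against heart (log2 difference -0.84, adjusted p = 0.0452), and did not pass without the block (adjusted p = 0.12) or without EOM array 1, EOM array 3, heart array 2 or heart array 3 (adjusted p = 0.0898 to 0.215). Ndrg4, known from heart and brain, read 5449, 6936 and 6878 in mdx EOM, 8972, 13622 and 12262 in mdx heart and 1401, 1761 and 1191 in mdx leg (log2 difference -0.83, adjusted p = 0.00629, and EOM minus leg 2.03, adjusted p = 1.17e-05), while a dimmer probe set of it did not pass against heart (log2 difference -0.57, adjusted p = 0.0694).

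Dko EOM and dko leg, where the leg arrays had a part in choosing the set, gave log2 differences EOM minus leg of 2.39 for Slc4a3, 1.95 for Myzap, 2.88 for Ces1d, 2.15 for Ldhb and 1.53 for Myh6, which did not pass (adjusted p = 0.147). Tnnc1 differed from this pattern, with 0.32 (adjusted p = 0.525). It read 10632, 13264 and 22242 in dko EOM and 11874, 9672 and 14006 in dko leg, against 10274, 13033 and 21981 in mdx EOM and 2344, 1361 and 2348 in mdx leg. All dko leg readings of this slow-fibre gene were above all mdx leg readings, while the dko and mdx EOM readings overlapped, and neither was tested.

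At the other end Ankrd1, Rrad, Fhod3, Csrp3 and Pkp2 were the cardiac-type genes lowest in EOM relative to leg. Fhod3, a formin that assembles sarcomeric actin, read 1964, 1729 and 1109.7 in mdx EOM, 8736, 10712 and 6754 in mdx heart and 4519, 3781 and 3033 in mdx leg (log2 difference -2.34, adjusted p = 5.88e-08, and EOM minus leg -1.17, adjusted p = 0.000184). Ankrd1, Csrp3 and Rrad, described above, had log2 differences EOM minus leg of -3.31, -1.13 and -1.45. For Csrp3 this did not pass without the block (adjusted p = 0.0726). Pkp2 entered this ranking by a dim probe set (-1.05, adjusted p = 0.00764), and its brighter probe set, used for the junctions, did not differ from leg past the threshold (-0.30, adjusted p = 0.369).

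By gene list, the cardiac-type set holds 20 of the 30 cardiomyocyte genes, and of these 2 were higher in mdx EOM than in leg, Myh6 and Fhl2, 2 were lower and 16 did not pass. Without the block 1 was higher and 1 lower. Of the 8 heart transcription factors in the set 0 passed. Fatty acid genes gave 4 higher of 21, Echs1, Hadhb, Oxct1 and Slc27a1, against 0 without the block and 1 to 6 without single arrays, fewest without EOM array 1 or 2. The endothelial list gave 6 higher of 11, Eng, Icam2, Lyve1, Ptprb, Tek and Vwf, and 0 lower. There 3 were higher without the block, without EOM array 1 and without EOM array 2. The summed level of all 22 endothelial genes was 49785 to 74180 in mdx EOM, 68670 to 91375 in mdx heart and 45414 to 50376 in mdx leg. Other lists besides muscle also gave genes above leg: 2 of 2 erythroid, 3 of 3 matrix, 3 of 4 skin and mucosal epithelium and 2 of 3 adipocyte genes. Those of skin and mucosal epithelium were Dsp, Perp and Dsc2. Without the block the counts were 1, 1, 3 and 1. In the retina and eye pigment list 0 of 1 passed. The part of vessels and of these other cells in the cardiac-type set was not tested.

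**Figure D5:**
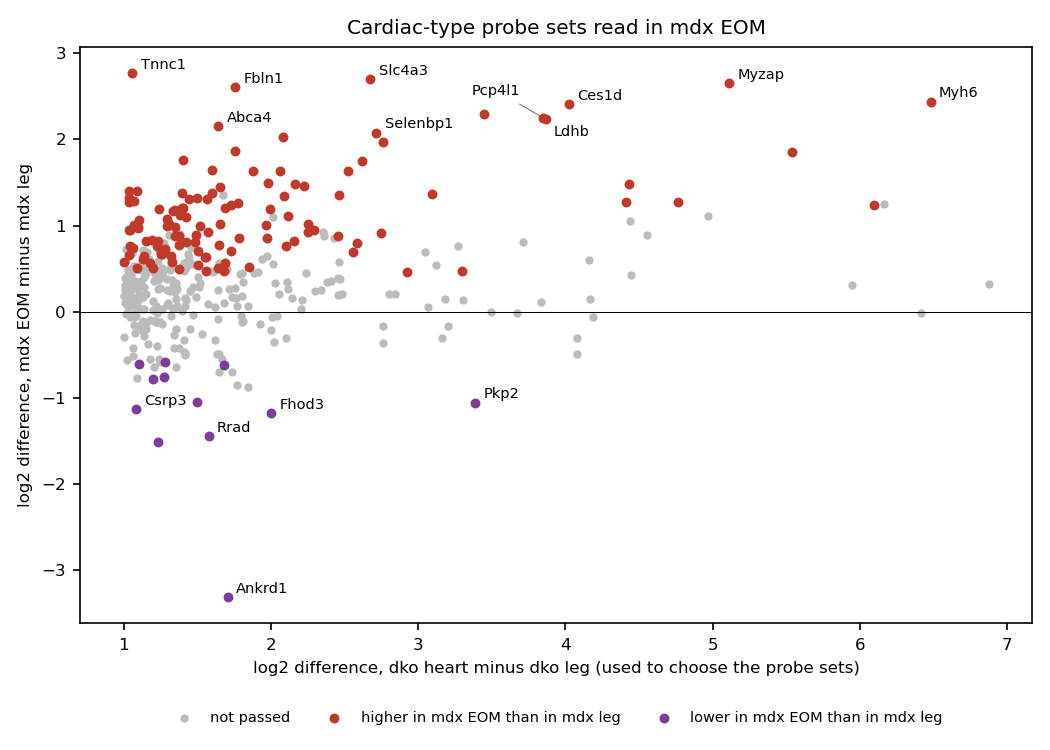
Each point is 1 of 397 cardiac-type probe sets, with its log2 difference dko heart minus dko leg, which chose it, on the horizontal axis and mdx EOM minus mdx leg on the vertical axis. Red points (116) passed higher in EOM, purple points (12) lower and grey points (269) did not pass, and Tnnc1, Slc4a3 and Myzap lie highest while Ankrd1 lies lowest.

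The same tissue difference was read in dko mice, on 6 other arrays. The log2 differences in mdx and dko share no arrays, but both come from the same fit and its estimate of spread. Their calls are therefore not independent of each other. There 1650 probe sets passed (18.6%), 823 (9.26%) higher in EOM and 827 (9.3%) lower. Of the 755 probe sets higher in mdx EOM than in mdx heart, 746 had the same sign in dko and 549 were called the same way. Of the 815 lower in mdx EOM, 792 had the same sign and 554 were called the same way, and 0 of either kind were called the opposite way. Ryr1 and Ryr2 had log2 differences of 6.23 and -6.52 in dko, Myh3 had 5.94, and Nppb had -5.81 (adjusted p = 7.16e-11, 1.52e-10, 2.92e-09 and 4.09e-08). Acta1, which did not pass in mdx, was higher in dko EOM (2.26, adjusted p = 0.0451), as was Myl2 (3.72, adjusted p = 0.0078). The test of the difference itself, dko EOM minus dko heart against mdx EOM minus mdx heart, called 0 of 8888 probe sets (0.0%) by limma, with a smallest adjusted p of 0.5293. At an unadjusted p under 0.05 it gave 416 probe sets where 444.4 would fall by chance, and 124 without the block. A dko effect that differed between the tissues was not detectable on 3 arrays a group, which does not show that there was none.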

How the data were processed

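Affymetrix mouse arrays were used as deposited, as linear intensity values. By their distribution the authors had scaled the arrays to a common mean after trimming 2% of either tail. Which software did so is not stated by the sources used here. No detection calls or scan dates were used. Of 12488 probe sets, 66 controls were left out; 10833 others had 1 symbol in the supplied platform annotation, 396 several and 1193 none. Probe sets above the 40th percentile of an array on at least 3 of the 18 arrays were tested (8888). The log2 of the intensity plus 166.7, an offset equal to the median 25th percentile over arrays, was fitted with limma 3.58.1 in R 4.3.3, as 6 group means plus the replicate number of the titles as a block over all 18 arrays (10 residual degrees of freedom), and tested on simulated data. Tests were two-sided. The number of arrays limits the precision. Python 3.11.15 and matplotlib 3.10.9 drew the figures. Columns of other series numbered 0.

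The labels do not say what the replicate number marks. Same-numbered EOM and heart arrays correlated at 0.363 to 0.612 in mdx and 0.321 to 0.618 in dko, and differently numbered ones at -0.474 to 0.116 and -0.523 to 0.214, so the numbers were taken to pair the arrays, a pairing that comes from the data.

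The members and gene lists were chosen with earlier results of these data known. A gene is given by its tested probe set with the highest mean over all arrays. Named genes are list members, those furthest apart first, the 10 genes furthest in each direction with the same sign in all 3 same-numbered pairs, and the 10 highest and 5 lowest cardiac-type genes; Ndrg4 was named after its values were seen. For Pcp4l1 and Fbln1 the probe set that entered the cardiac-type ranking is given. Alternatives changed the block, offset, filter, scaling, fit and arrays.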

Additional observations from a re-analysis of the deposited data

How the results depend on the processing

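The 1570 probe sets called between mdx EOM and mdx heart became 627 without the replicate block (334 higher, 293 lower), 928 without the arrays numbered 3, 877 when the 6 arrays were fitted alone with the block and 361 without it, and 176 when a log2 difference beyond 1 was required; all but the first use fewer arrays or a harder test. Leaving out single arrays gave 1156 to 1242. Offsets of 50 and 400, no filter, a filter at the 60th percentile, scaling at the 75th percentile, quantile normalization and a trended robust fit gave 1490 to 1648. For dko EOM minus dko heart the count of 1650 became 681 without the block and 957 without the arrays numbered 3, and 1216 to 1376 without single arrays. For mdx EOM minus mdx leg 1106 became 357 and 601, and 754 to 880 without single arrays. For mdx heart minus mdx leg 2026 became 886 and 1336, and 1583 to 1735. The interaction stayed at 0 calls in every setting run. The median of the cardiac-type set, 0.391, was 0.459 without the block, 0.324 without the arrays numbered 3, and 0.364 to 0.419 without single arrays. Of 152 named genes 139 passed, of which 124 still passed without the block and 128 without the arrays numbered 3, 131 in all 6 fits that left out an array, and 0 were reversed in any setting. Utrn, which did not pass (-0.011), was at 0.003 with the offset of 400 and at -0.224 to 0.345 without single arrays. The cause of these changes was not tested. The median of the calcium list was -0.046, and 0.026 after quantile normalization. The arrays carry no detection calls, so a level near the offset of 166.7 has no known distance from background.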

Other observations

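Chemokine and growth factor genes were also read. The eosinophil chemokine Ccl11 read 2356, 1346 and 1553 in mdx EOM, 118, 77.9 and 49.6 in mdx heart and 475, 455 and 532 in mdx leg (log2 difference 2.92, adjusted p = 1.54e-08), and EOM stood above leg as well (log2 difference EOM minus leg 1.52, adjusted p = 4.34e-05). In the list of chemokine, cytokine and complement genes 4 of 15 were higher in EOM and 0 lower, and 2 were higher without the block, without EOM array 1 and without heart array 1. Igfbp6, which binds insulin-like growth factor 2, read 9588, 9256 and 11180.5 in mdx EOM, 1304, 2082 and 3700.2 in mdx heart and 3377, 2027 and 5132 in mdx leg (log2 difference 2.12, adjusted p = 1.2e-05), and also lay above leg (EOM minus leg 1.55, adjusted p = 0.000451). Fgfr1, a receptor for fibroblast growth factors, read 2075, 1686 and 4813 in mdx EOM, against 643, 621 and 1160.2 in mdx heart (log2 difference 1.54, adjusted p = 9.09e-05, and adjusted p = 0.0792 without the block). Of 28 muscle growth factor genes 6 were higher and 2 lower, against 3 and 2 without the block.

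Single stress genes lay on either side. Gadd45g, a growth arrest gene, read 5643, 9815 and 7346 in mdx EOM, 865, 1016 and 658 in mdx heart and 4345, 6319 and 5359 in mdx leg (log2 difference 2.92, adjusted p = 5.64e-05), and the inducible heat shock gene Hspa1a read 1701, 2971 and 3534 in mdx EOM, against 644, 840.3 and 306 in mdx heart (log2 difference 1.94, adjusted p = 0.00047). Nqo1, a detoxifying quinone reductase, was lower, with 130.1, 448 and 385 in mdx EOM, against 2458, 2044 and 916 in mdx heart (log2 difference -1.99, adjusted p = 0.00122), and so was the metallothionein Mt1, with 6348, 5206 and 4624 in mdx EOM, against 17424, 16179 and 17588 in mdx heart (log2 difference -1.64, adjusted p = 0.000729). Of 33 heat shock and oxidative stress genes 5 were higher and 4 lower, against 3 and 1 without the block. Over all genes 8.79% were higher and 9.48% lower, so these counts do not set the list apart. Cyp2f2, a cytochrome best known from lung, read 3019, 2089 and 2075 in mdx EOM, 788, 644 and 447 in mdx heart and 1413, 852 and 584 in mdx leg (log2 difference 1.70, adjusted p = 3.59e-06), while the other 4 lung genes tested did not pass.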
